A study of Mus musculus with 16 samples.

Results

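The cytosolic ribosomal protein genes were taken as the protein-coding genes whose GENCODE M21 symbol is Rpl or Rps followed by a number, together with Rplp0, Rplp1, Rplp2 and Rpsa. Kinases of the Rps6k family, pseudogenes and predicted genes were left out. The rule found 85 genes among the 55401 of the expression tables, 52 for the large subunit and 33 for the small subunit. Of these 85 genes, 77 are the core members of the ribosome and 8 are paralogs, Rpl3l, Rpl7l1, Rpl10l, Rpl22l1, Rpl36al, Rpl39l, Rps27l and Rps27rt. The members were chosen by symbol and not by their levels, but the family was picked with earlier results of these data known.

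Poly(A) RNA was measured in 16 libraries of CD8+ T cells from OT-I mice, in which a transgene fixes the T cell receptor to 1 that recognises ovalbumin. Spleen cells were activated with an ovalbumin peptide and then kept in IL-15, which drives memory cells (TM), or in IL-2, which drives effector cells (TE). TPdh−/− mice carry a floxed Pdha1 and a CD4-cre transgene, so T cells, but not the other cells of the spleen, lose Pdha1, which encodes a subunit of the enzyme that turns pyruvate into acetyl-CoA in mitochondria. WT mice keep the gene. The 4 groups of 4 libraries were TPdh−/− TM (libraries 13 to 16), WT TM (9 to 12), TPdh−/− TE (5 to 8) and WT TE (1 to 4). Young adult mice of both sexes were used in the study, and the age and sex behind each library were not given. The paper's legend gives 5 mice per condition for RNA sequencing of TM cells, while each group here holds 4 libraries. Since no label ties a library to an animal, each p measures the spread between these libraries, which may be technical. The spread behind each edgeR p was estimated over all 4 groups together. Counted over the whole gene, Pdha1 lay at 141 to 160 CPM (counts scaled to a common library size) in TPdh−/− TM, against 169 to 194 CPM in WT TM (log2 −0.22, edgeR adjusted p = 0.00556), and at 147 to 156 CPM in TPdh−/− TE, against 160 to 162 CPM in WT TE (log2 −0.08, edgeR adjusted p = 0.285). Reads from exons outside the floxed part enter this count, so it does not check the deletion.

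Cytosolic ribosomes read messenger RNA into protein. Each small subunit decodes the message and each large subunit joins the amino acids, and almost every core protein is needed in a single copy per ribosome. In mammals the messenger RNAs for these proteins begin with a run of pyrimidines at the 5′ end (the terminal oligopyrimidine or TOP motif), through which the kinase mTOR and the binding protein LARP1 control their translation together. Activated T cells build many ribosomes as they grow. Some members also act outside the ribosome, among them Rpl5 and Rpl11, which bind and restrain the p53 inhibitor Mdm2.

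The start sites of the members most discussed below are shown because the pyrimidine run is the feature by which messages of this family are known. RefSeq promoter windows (GRCm38.p6) were matched by symbol for 65 of the 85 members. Each sequence runs 5′ to 3′ on the strand of the gene, with 30 bases before the annotated start and 15 bases from it, and capitals mark the longest unbroken run of C and T, or both runs where 2 of that length occur.
Rpl28, chr7:4792935-4792979, plus strand: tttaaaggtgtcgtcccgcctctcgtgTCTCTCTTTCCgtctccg
Rps6, chr4:86857353-86857397, minus strand: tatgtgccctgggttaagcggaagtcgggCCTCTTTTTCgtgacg
Rps2, chr17:24720033-24720077, plus strand: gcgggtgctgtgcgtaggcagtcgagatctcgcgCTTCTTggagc
Rps16, chr7:28350659-28350703, plus strand: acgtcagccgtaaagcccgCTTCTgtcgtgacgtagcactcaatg
Rpl41, chr10:128549154-128549198, minus strand: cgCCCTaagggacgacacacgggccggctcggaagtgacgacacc
Rps27, chr3:90213634-90213678, minus strand: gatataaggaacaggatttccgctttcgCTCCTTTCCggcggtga
Rps27rt, chr9:114982725-114982769, minus strand: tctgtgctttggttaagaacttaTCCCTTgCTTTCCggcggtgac
Rps27l, chr9:66946056-66946100, plus strand: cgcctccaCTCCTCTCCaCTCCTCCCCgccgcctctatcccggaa
Rpl22, chr4:152325696-152325740, plus strand: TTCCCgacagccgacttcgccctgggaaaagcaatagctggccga
Rpl22l1, chr3:28805478-28805522, plus strand: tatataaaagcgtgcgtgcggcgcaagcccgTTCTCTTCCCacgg

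In Rpl28, Rps6 and Rps27 the longest run, of 11, 10 and 9 bases, crossed the annotated start, and in Rpl22l1 a run of 10 bases began just after it. Rps27rt held 2 runs of 6 bases, the second of which began at the annotated start, and both runs of 9 bases in Rps27l ended before the start. In Rps16, Rpl41 and Rpl22 no run exceeded 5 bases in this window. Over the 65 matched members the longest run had a median of 7 bases, against 5 bases over the 27025 genes of the table. A run of at least 8 bases was found in 31 of the 65 members (47.7%), against 21.3% of all 27025 genes. The motif CTTTC, searched on the gene strand from 30 bases before the start to 20 bases after it, stood in 20 of the 65 members (30.8%), against 8.0% of all genes. The related motif CTTCC, which can overlap it by a single base, stood in 18 members (27.7%), against 12.7% of all genes, and at least 1 of both motifs stood in 32 members (49.2%), against 19.2% of all genes. Searched on the other strand, the first motif reads GAAAG and stood in 7.69% of the members, against 6.96% of all genes. The second motif reads GGAAG there and stood in 24.6% of the members, against 13.7% of all genes. The windows follow the RefSeq start, and the runs given hold for that start alone. At least for Rps2, Rpl28, Rps16, Rpl41 and Rpl22l1, and by a few bases for Rps27, it lies inside the gene as GENCODE draws it.

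Ribosomal protein RNAs made up between 23.8 and 30.7% of all transcripts in every library. The level was read as TPM, a share of all transcripts that corrects for transcript length. Summed over the 85 members, the level was 26.9, 29.6, 29.9 and 28.3% of all TPM in the TPdh−/− TM libraries and 28.3, 28.4, 30.7 and 24.6% in the WT TM libraries. In the TPdh−/− TE libraries it was 23.8, 25.7, 26.3 and 25.5%, and in the WT TE libraries 26.2, 25.9, 26.9 and 25.2%. The genotypes overlapped in both cultures, and library 12 of WT TM lay below the other TM libraries. Group means were 28.7 ± 1.38% in TPdh−/− TM, 28.02 ± 2.52% in WT TM, 25.3 ± 1.09% in TPdh−/− TE and 26.1 ± 0.696% in WT TE (SD, n = 4 each).

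As a share of the counts, which are not corrected for length, the members held much less, because their transcripts are short. The share was 9.19 ± 0.502% in TPdh−/− TM, 9.24 ± 1.03% in WT TM, 8.55 ± 0.416% in TPdh−/− TE and 9.20 ± 0.270% in WT TE. On that scale WT TM and WT TE were nearly level, while in summed TPM the TM groups stood above the TE groups. The median effective length, the number of positions at which a fragment can start, was 404 bases for the members and 1937 bases for the 15277 tested genes, and 14 members had a mean effective length under 200 bases. The TPM of such short transcripts moves with the fragment length of a library, which ran from 308 to 326 bases in TPdh−/− TM, 296 to 306 bases in WT TM, 304 to 315 bases in TPdh−/− TE and 303 to 309 bases in WT TE, and its part in the sums was not tested.

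The core members spanned a 37.3-fold range of mean TPM, with a median of 2877 TPM. Rps27 had the highest mean over the 16 libraries, at 13590 TPM, and an effective length of only 77.9 bases. It was followed by Rps18, at 11150 TPM, and Rps15a, at 10970 TPM, both proteins of the small subunit. The lowest core member was Rpl27a, at 364.5 TPM, and 71 of the 77 core members lay above 1000 TPM. The 10 most abundant core members held 31.6% of the summed core TPM. The small subunit sum exceeded that of the large subunit in TM and not in TE, with a ratio of 1.06 ± 0.00961 in TPdh−/− TM, 1.03 ± 0.0302 in WT TM, 0.976 ± 0.0102 in TPdh−/− TE and 0.959 ± 0.00645 in WT TE. Rps27, which enters the small subunit sum, averaged 18680 TPM in TPdh−/− TM and 15810 TPM in WT TM. In TE it averaged 9946 TPM in TPdh−/− and 9915 TPM in WT. The part of this 1 short transcript in the ratio was not tested, so the ratio does not show a shift of the whole subunit. In WT TM library 12 alone of the TM libraries the ratio was under 1, at 0.987.

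**Figure D1:**
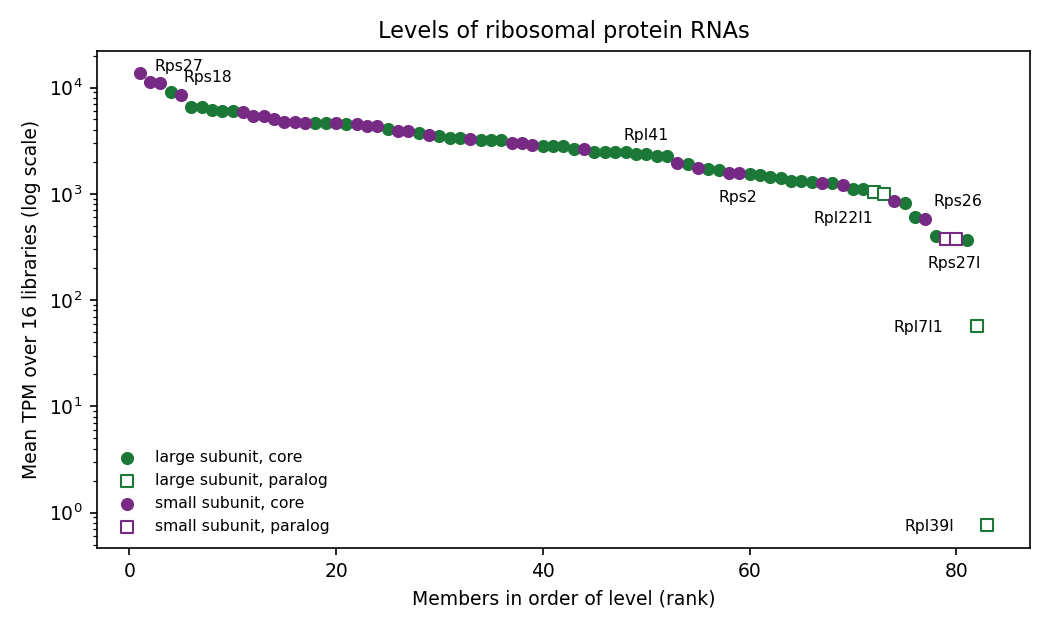
Mean TPM over the 16 libraries (y axis, log scale) of the members in order of level (x axis, rank), coloured by subunit, with paralogs as open squares. Most core members lie between 1000 TPM and the 13590 TPM of Rps27, and Rpl7l1 (57.1 TPM) and Rpl39l (0.761 TPM) lie far below. Rpl3l and Rpl10l, at or near 0, are not drawn.

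The libraries held between 53007257 and 73507566 counts, and Rpl36, a core member with few counts, still had 5138 of them over the 4 libraries of TPdh−/− TM. All 8 of a list of CD8 T cell genes were detected in each group, at a summed 3088 to 5056 TPM, while 5 erythroid genes summed to at most 2.96 TPM. A list of 7 B and plasma cell genes summed to 6.67 to 39.83 TPM in TPdh−/− TM, with library 13 the highest, and to 4.06 to 14.42 TPM in WT TM. In TE it summed to 2.23 to 15.45 TPM in TPdh−/− and 1.12 to 2.62 TPM in WT. Its part in the differences was not tested, and other marker lists are given below. The members moved together from library to library. After group means were removed, 93.3% of the pairs of members had a positive correlation over the 16 libraries, which share depth and scaling, and the median correlation was 0.661. In WT TM library 11 all 83 tested members lay above their group mean, and in WT TM library 12 73 of 83 lay below it. In TPdh−/− TM library 13 80 of 83 lay below the group mean, in TPdh−/− TE library 5 75, and in WT TE library 4 77. The median SD within groups was 0.142 on the log2 CPM scale for the members, against 0.0952 for the 960 genes at least as abundant as the 10th percentile of the members. Calls of named members that were lost when a library was left out are given with the result.

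**Figure D2:**
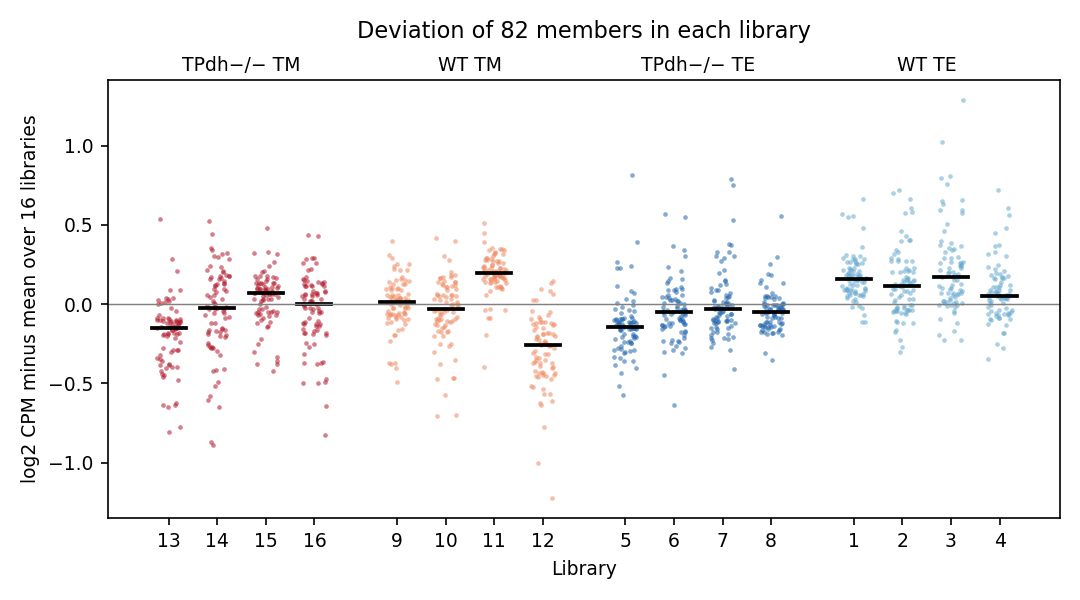
Deviation of 82 members from their own mean over 16 libraries (y axis, log2 CPM) in each library (x axis), with 1 point per member and a bar at the median, and Rpl39l left out for its low counts. The 4 medians of TPdh−/− TE lie below the 4 of WT TE, while in WT TM the medians of libraries 11 and 12 lie at the 2 ends of the plot.

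The genotype comparison in TE asked how loss of the pyruvate dehydrogenase complex changed effector cultures, and there a minority of the members were called, in 1 direction. Of the 83 members that passed the filter on low counts, 24 were called lower in TPdh−/− TE than in WT TE and 0 were called higher (edgeR quasi-likelihood test, Benjamini-Hochberg adjusted p below 0.05 over 15277 genes). Among all tested genes 14.3% were called lower and 17.3% higher, so the members' 28.9% lower calls stood above the background and their absent higher calls below it. The median log2 difference of the members was −0.20, against −0.00 over all genes, and 80 of the 83 members had a negative value. These values rest on counts scaled with TMM factors. The summed TPM of the members overlapped, at 23.8 to 26.3% in TPdh−/− TE and 25.2 to 26.9% in WT TE. Only 1 member was higher at an unadjusted p under 0.05, and DESeq2 and limma-voom called 0 higher. The 24 calls lay between −0.16 and −0.46 on the log2 scale. In CPM, all 4 TPdh−/− TE libraries lay below all 4 WT TE libraries in 49 of the 83 tested members (59.0%), against 16.5% of all tested genes. In 0 members did they lie above, against 16.5% of all tested genes. Of the 24 called members 23 did not overlap, against 87.5% of all genes called lower.

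Rpl28, a protein at the surface of the large subunit (ENSMUSG00000030432, chr7:4792874-4795066), led the calls. It stood at 677, 766, 707 and 780 CPM in the TPdh−/− TE libraries, against 920, 958, 897 and 1029 CPM in the WT TE libraries. In TPdh−/− TE it fell by 0.38 in log2 terms (SE 0.0650, edgeR adjusted p = 0.000315), with no overlap between the groups. Rpl28 shares exon positions with Ube2s and the kit does not keep the strand, so part of its count cannot be assigned with certainty. Rps16, a protein of the small subunit near the decoding site (ENSMUSG00000037563, chr7:28350652-28353155), stood at 402, 400.3, 433 and 399 CPM in TPdh−/− TE, against 525.5, 526, 574 and 500.5 CPM in WT TE. It fell by 0.38 (SE 0.0877, edgeR adjusted p = 0.00195).

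Rpl8, which lies near the peptidyl transferase centre (ENSMUSG00000003970, chr15:76904078-76906314), stood at 568, 651, 622 and 608 CPM in TPdh−/− TE, against 735, 733, 799 and 735 CPM in WT TE. It fell by 0.29 (SE 0.0643, edgeR adjusted p = 0.00238). Rps2, the small subunit protein at the entry of the message channel (ENSMUSG00000044533, chr17:24718116-24721929), stood at 1081, 1138, 1137 and 1134 CPM in TPdh−/− TE, against 1288, 1380, 1457 and 1360 CPM in WT TE. It fell by 0.29 (SE 0.0639, edgeR adjusted p = 0.00266), and its exons also hold Snhg9 and Snora64. Rpl41, the smallest protein of the ribosome (ENSMUSG00000093674, chr10:128548114-128549305), stood at 451, 476, 453 and 447 CPM in TPdh−/− TE, against 557, 610, 580 and 616 CPM in WT TE, and fell by 0.37 (SE 0.0922, edgeR adjusted p = 0.00311). In CPM none of these 5 genes overlapped between the genotypes. In TPM, Rps2 overlapped, at 1791 to 1918 TPM in TPdh−/− TE against 1913 to 2190 TPM in WT TE. Rpl8 also overlapped in TPM, at 1197 to 1396 TPM against 1388 to 1532 TPM, while Rpl28, Rps16 and Rpl41 did not.

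Among the members with roles outside the ribosome, Rpl5, Rpl13a and Rpsa were called lower in TPdh−/− TE. Rpl5, which restrains Mdm2, averaged 1465 ± 48.2 CPM in TPdh−/− TE and 1640 ± 68.2 CPM in WT TE (log2 −0.16, SE 0.0426, edgeR adjusted p = 0.0230), a call that was lost without library 1 (edgeR adjusted p = 0.0586) and with library totals (log2 −0.08, edgeR adjusted p = 0.195). Its partner Rpl11 averaged 1061 ± 73.1 CPM in TPdh−/− TE and 1214 ± 47.6 CPM in WT TE, and its log2 value of −0.19 missed the threshold (edgeR adjusted p = 0.0948). Rpl13a, which in human cells also takes part in silencing inflammatory messages, averaged 822 ± 59.4 CPM in TPdh−/− TE and 1025 ± 105 CPM in WT TE (log2 −0.32, edgeR adjusted p = 0.0119). Rpsa, also known as a laminin receptor, averaged 3566 ± 190 CPM in TPdh−/− TE and 4169 ± 175 CPM in WT TE (log2 −0.23, edgeR adjusted p = 0.0195), and its edgeR adjusted p was 0.0561 without library 5 and 0.1045 with library totals (log2 −0.14). Rps6, the ribosomal target of S6 kinases, averaged 2010 ± 129 CPM in TPdh−/− TE and 2258 ± 114 CPM in WT TE and did not pass (log2 −0.17, edgeR adjusted p = 0.141). Rplp0, which carries the acidic stalk of the large subunit, had a log2 difference of −0.06 (edgeR adjusted p = 0.621).

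By subunit, 18 of 50 large subunit members and 6 of 33 small subunit members were called lower in TE, with medians of −0.22 and −0.18. Beside the 14.3% of all tested genes called lower, the share of the small subunit lay near the background and that of the large subunit above it. With library totals in place of TMM factors, 13 members were called lower and 1 higher, beside 1242 lower and 3710 higher of all 15277 genes. Over all genes the share of calls that were higher was then 74.9%, against 54.8% with TMM factors. With only the TE libraries in the fit, 49 members were called lower, beside 2258 of 14590 genes. Several cell type marker lists differed between the same libraries. The 8 CD8 T cell markers summed to 3088 to 3425 TPM in TPdh−/− TE, against 3967 to 4244 TPM in WT TE. The 5 gamma-delta T cell markers summed to 192 to 315.5 TPM in TPdh−/− TE, against 89.9 to 101 TPM in WT TE, and the 7 macrophage and monocyte markers to 87.0 to 104 TPM, against 55.55 to 64.95 TPM. All markers of these 3 lists were detected in both groups, and their part in the calls was not tested. In bulk RNA fewer cells of a type and less RNA per cell cannot be told apart.

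**Figure D3:**
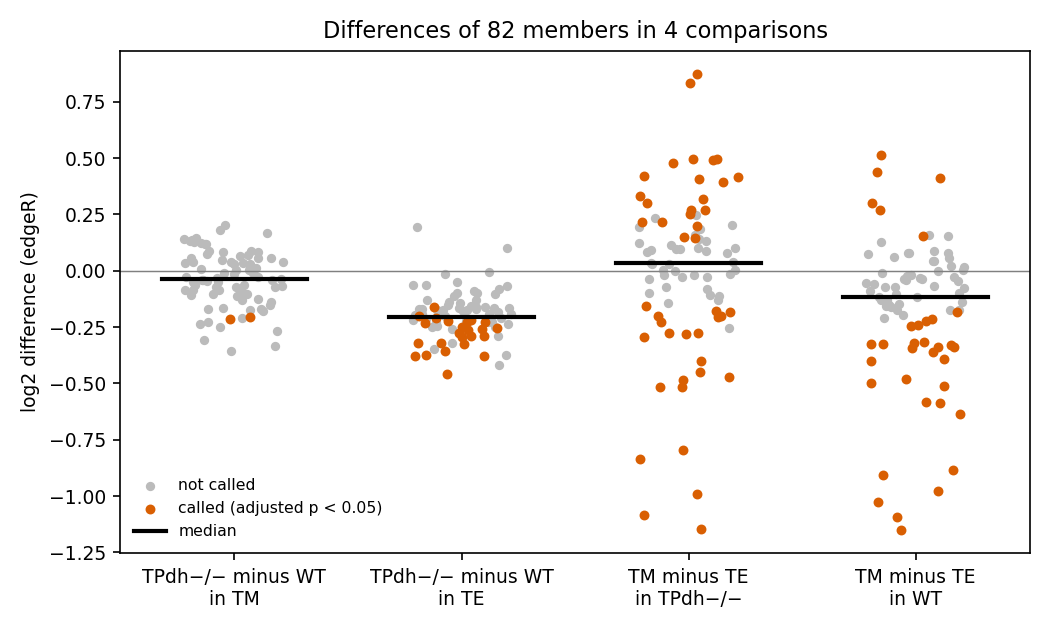
log2 differences from edgeR (y axis) of 82 members in 4 comparisons (x axis), with called members in orange, the others in grey and a black bar at the median, and Rpl39l left out for its low counts. In TE the members lie almost all below 0 with a median of −0.20 and 24 lower calls, in TM they scatter around 0, and between cultures they spread in both directions.

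The genotype comparison in TM asked the same of memory cultures, where few members were called. Only 2 of the 83 members were called, both lower in TPdh−/− TM, against a background of 7.27% of genes called lower and 11.0% called higher. The 0 higher calls of edgeR were matched by 0 members higher at an unadjusted p under 0.05 and by 0 calls with DESeq2 and with limma-voom. The median log2 difference was −0.03, against −0.00 over all genes, and 36 of 83 members had a positive value. Rpl8 stood at 516, 533, 612 and 533 CPM in TPdh−/− TM, against 604, 591.5, 692 and 644 CPM in WT TM (log2 −0.21, SE 0.0643, edgeR adjusted p = 0.0350). Rpsa (ENSMUSG00000032518, chr9:120127689-120132369) stood at 2849, 3302, 3504 and 3279 CPM in TPdh−/− TM, against 3602, 3434, 4097 and 3882 CPM in WT TM (log2 −0.22, SE 0.0692, edgeR adjusted p = 0.0380). Both overlapped between the genotypes.

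Both calls in TM depended on single libraries. They were lost when library 11, 12, 13, 14 or 16 was left out, and with only the TM libraries in the fit. Without library 12 or library 10 the count of lower calls was 4, and without library 15 it was 5. Without library 11 or library 13 the median of the members became positive, at 0.05 and 0.02. The libraries of TM also differed in their markers, with 7 NK cell markers at a summed 99.2 to 144 TPM in TPdh−/− TM, against 28.4 to 40.4 TPM in WT TM, the 8 CD8 T cell markers at 3943 to 4135 TPM, against 4833 to 5056 TPM, the 5 gamma-delta markers at 158 to 185 TPM, against 56.1 to 63.7 TPM, and the 7 macrophage and monocyte markers at 186 to 239 TPM, against 132 to 146 TPM. Their part in these calls was not tested. Rps6 averaged 2298 ± 249 CPM in TPdh−/− TM and 2383 ± 261 CPM in WT TM (edgeR adjusted p = 0.728), and Rplp0 averaged 2230 ± 211 CPM in TPdh−/− TM and 2626 ± 290 CPM in WT TM (log2 −0.24, edgeR adjusted p = 0.0616).

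The interaction, the genotype difference in TM minus that in TE, tested whether the genotype difference was the same in both cultures. It was positive for 75 of the 83 members, with a median of 0.17 against −0.01 over all genes, yet only 2 members were called higher and 0 lower, against backgrounds of 8.05% and 7.51%. With single libraries left out that median ran from 0.11 (library 12) to 0.25 (library 11), and without libraries 5 and 12 it was 0.07. At an unadjusted p under 0.05, 20 members were higher and 0 lower, DESeq2 called 8 higher and 0 lower, and limma-voom 2 higher and 0 lower. Rpl17, a protein at the exit tunnel (ENSMUSG00000062328, chr18:74998558-75003381), stood at 1598, 1869, 1777 and 1835 CPM in TPdh−/− TM, against 1644, 1655, 1787 and 1162 CPM in WT TM. In TE it stood at 1174, 1215, 1295 and 1344 CPM in TPdh−/−, against 1564, 1448, 1487 and 1481 CPM in WT. The interaction was 0.43 on the log2 scale (SE 0.156, edgeR adjusted p = 0.0416).

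Rpl6 (ENSMUSG00000029614, chr5:121204481-121209241), a large subunit protein, stood at 1421, 1547, 1664 and 1540 CPM in TPdh−/− TM, against 1493, 1499, 1724 and 1451 CPM in WT TM. In TE it stood at 1442, 1525, 1505 and 1562 CPM in TPdh−/−, against 1809, 1771, 1829 and 1785 CPM in WT. The TE libraries did not overlap while the TM libraries did, and the interaction was 0.26 (SE 0.0773, edgeR adjusted p = 0.0471). Without libraries 5 and 12 it was 0.21 for Rpl6 (edgeR adjusted p = 0.117) and 0.28 for Rpl17 (edgeR adjusted p = 0.0326). The count of members called higher moved between 0 and 18 when single libraries were left out, reaching 18 without library 11, 7 without library 13 and 5 without library 12. It was 0 without library 1, 2, 3, 4, 5, 6, 14, 15 or 16, 1 without library 9 or 10, and 0 with library totals, under which 33.8% of the calls over all genes were higher, against 51.7% with TMM factors.

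The comparison of TM with TE asked how memory and effector cultures differ, first in WT cells. Here single members changed much more than in either genotype comparison, while the family as a whole was not called more often than other genes. In WT, 28 members were called lower and 6 higher in TM, against a background of 34.3% lower and 34.3% higher. The median of the members was −0.12, against 0.01 over all genes. Rps2 stood at 708, 668, 805 and 742 CPM in WT TM, against 1288, 1380, 1457 and 1360 CPM in WT TE. In WT TM it fell by 0.91 in log2 terms (SE 0.0639, edgeR adjusted p = 2.11e-09).

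Rpl41 stood at 289, 271, 353 and 245.5 CPM in WT TM, against 557, 610, 580 and 616 CPM in WT TE, and fell by 1.03 (SE 0.0922, edgeR adjusted p = 1.35e-08). Rps26, a small subunit protein at the message exit (ENSMUSG00000025362, chr10:128624534-128626747), stood at 163, 146, 194 and 156 CPM in WT TM, against 239, 251, 292 and 240.2 CPM in WT TE, and fell by 0.63 (SE 0.0970, edgeR adjusted p = 6.42e-06). Rpl7a (ENSMUSG00000062647, chr2:26910764-26913318) stood at 1291, 1350.0, 1451 and 1299 CPM in WT TM, against 1779, 1786, 1706 and 1844 CPM in WT TE, and fell by 0.40 (SE 0.0559, edgeR adjusted p = 1.28e-05). None of these genes overlapped between the cultures. The lowest log2 value among the members belonged to Rpl36, named here after its values were seen, which stood at 24.5, 21.1, 33.6 and 27.0 CPM in WT TM, against 50.4, 56.7, 84.1 and 44.6 CPM in WT TE (log2 −1.15, SE 0.238, edgeR adjusted p = 9.72e-05).

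The higher members in WT TM were led by Rpl21, Rps24, Rps27, Rps27rt and Rpl4, and in each but Rpl4 the cultures overlapped, with library 12 the lowest of WT TM. Rpl21, a large subunit protein (ENSMUSG00000041453, chr5:146832890-146837032), stood at 2280.0, 2275, 2412 and 1757 CPM in WT TM, against 1757, 1525, 1638 and 1522 CPM in WT TE (log2 0.44, SE 0.103, edgeR adjusted p = 0.000466). Rps24, mutated in some patients with Diamond-Blackfan anaemia (ENSMUSG00000025290, chr14:24487125-24496959), stood at 2029, 1947, 2006 and 1572 CPM in WT TM, against 1694, 1465, 1464 and 1515 CPM in WT TE (log2 0.30, SE 0.0780, edgeR adjusted p = 0.00177). Rpl4 (ENSMUSG00000032399, chr9:64173375-64178666) stood at 3666, 3669, 3913 and 3804 CPM in WT TM, against 3572, 3313, 3332 and 3297 CPM in WT TE (log2 0.16, SE 0.0402, edgeR adjusted p = 0.0118). Without library 12 the higher calls in WT numbered 13 and the lower 25, and without libraries 5 and 12 they numbered 15 and 26. Cell type markers separated the same cultures without overlap. In WT the macrophage and monocyte markers summed to 132 to 146 TPM in TM, against 55.55 to 64.95 TPM in TE, and the CD8 T cell markers to 4833 to 5056 TPM, against 3967 to 4244 TPM. The gamma-delta markers summed to 56.1 to 63.7 TPM in WT TM, against 89.85 to 101 TPM in WT TE, and the NK markers to 28.4 to 40.4 TPM, against 49.0 to 63.7 TPM. Their part in the calls was not tested.

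In TPdh−/− cells 22 members were called lower and 21 higher in TM, against a background of 34.7% lower and 33.0% higher, with a median of 0.03. There the NK markers summed to 99.2 to 144 TPM in TM, against 46.2 to 52.9 TPM in TE, the macrophage and monocyte markers to 186 to 239 TPM, against 87.0 to 104 TPM, the CD8 T cell markers to 3943 to 4135 TPM, against 3088 to 3425 TPM, and the gamma-delta markers to 158 to 185 TPM, against 192 to 315.5 TPM, and their part was not tested. Of the 28 members lower in WT, 20 were also lower in TPdh−/− (71.4% of the WT list and 90.9% of the TPdh−/− list), and all 6 higher members in WT were among the 21 in TPdh−/−. The 2 comparisons share no library. How many calls were shared over all tested genes was not counted, so this overlap cannot be set against a background. Rps2 stood at 593, 618, 710.2 and 665 CPM in TPdh−/− TM, against 1081, 1138, 1137 and 1134 CPM in TPdh−/− TE, and fell by 0.80 (SE 0.0639, edgeR adjusted p = 1.23e-08). Rpl41 stood at 239, 239, 280.2 and 266 CPM in TPdh−/− TM, against 451, 476, 453 and 447 CPM in TPdh−/− TE, and fell by 0.83 (SE 0.0922, edgeR adjusted p = 1.82e-07). Rps24 stood at 1979, 2178, 1943 and 2103 CPM in TPdh−/− TM, against 1454, 1427, 1450.0 and 1552 CPM in TPdh−/− TE, and rose by 0.48 on the log2 scale (SE 0.0780, edgeR adjusted p = 2.19e-05). Rpl17 rose by 0.49 (edgeR adjusted p = 0.000241) and Rpl5 by 0.27 (edgeR adjusted p = 0.000177), while in WT cells their differences of 0.06 and 0.07 did not pass. The interaction was called for Rpl17, as given above, and not for Rpl5 (log2 0.195, edgeR adjusted p = 0.0802). Rpl17 stood at 1162 CPM in WT TM library 12 and at 1644 to 1787 CPM in libraries 9 to 11. The WT TE libraries stood at 1448 to 1564 CPM.

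The 8 paralogs fell into 3 classes of level. Rpl10l, a copy of Rpl10 known for its role in the testis, was listed at 0 counts in all 16 libraries, which allows up to 3 counts per library, and Rpl3l, the muscle copy of Rpl3, at 2, 0, 1 and 2 counts in TPdh−/− TM, WT TM, TPdh−/− TE and WT TE. Neither passed the filter. Rpl39l, a testis copy of Rpl39, lay at 0.791 CPM or less in every library and did not pass in any comparison. Rpl7l1 lay at 57.1 TPM, and Rpl36al (1031 TPM), Rpl22l1 (1001 TPM), Rps27rt (376 TPM) and Rps27l (374 TPM) reached the range of the lower core members. The core partners Rpl10 and Rpl39 were not called in any of the 5 comparisons, and Rpl3 was called lower in TPdh−/− TE (log2 −0.22, edgeR adjusted p = 0.00646) and higher in TM than TE in TPdh−/− cells (log2 0.15, edgeR adjusted p = 0.0289), the second call being lost without library 5 or library 15.

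Rps27l, a target of p53 in mouse and human (ENSMUSG00000036781, chr9:66946086-66949516), was higher in TE than in TM in both genotypes. It stood at 36.65, 44.0, 49.1 and 44.6 CPM in TPdh−/− TM, against 110.6, 92.1, 90.6 and 92.4 CPM in TPdh−/− TE. In WT it stood at 47.5, 42.2, 47.7 and 31.3 CPM in TM, against 92.2, 93.4, 86.5 and 87.7 CPM in TE. It fell by 1.15 in TPdh−/− TM and by 1.09 in WT TM relative to TE (SE 0.129 for each, edgeR adjusted p = 9.97e-08 and 1.60e-07). Between genotypes it did not pass, with log2 differences of 0.05 in TM and 0.10 in TE (edgeR adjusted p = 0.823 and 0.527), and in TM the value was −0.07 without library 12 (edgeR adjusted p = 0.654). Its partner Rps27 (ENSMUSG00000090733, chr3:90212522-90213651) went the other way, at 1174, 1188, 1268 and 659 CPM in WT TM, against 822, 722.5, 761 and 702 CPM in WT TE (log2 0.51, SE 0.170, edgeR adjusted p = 0.00391).

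As a ratio of TPM, Rps27l over Rps27 was 0.01365 ± 0.00101 in TPdh−/− TM and 0.0554 ± 0.0102 in TPdh−/− TE, and 0.0155 ± 0.00198 in WT TM and 0.0461 ± 0.00292 in WT TE. The libraries of the cultures did not overlap (exact 2-sided permutation p = 0.0286 in each genotype, the smallest that 4 against 4 libraries allow, and 0.0714 after Benjamini-Hochberg adjustment over the 20 ratio comparisons made). Rps27rt, a short copy of Rps27 on chromosome 9, moved with Rps27, and its ratio to Rps27 was between 0.0272 and 0.0291 in all 4 group means. RSEM divides reads that match both copies between them, so the values of Rps27rt are uncertain.

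Rpl22l1, the paralog that Rpl22 holds down in mouse cells (ENSMUSG00000039221, chr3:28805436-28807424), was the member that fell furthest in TPdh−/− TE. It stood at 239.5, 226, 212 and 232 CPM in TPdh−/− TE, against 324, 311, 305 and 310.5 CPM in WT TE (log2 −0.46, SE 0.193, edgeR adjusted p = 0.0322). In TM it stood at 149.6, 171, 157 and 171.5 CPM in TPdh−/−, against 174, 181, 192 and 87.5 CPM in WT (log2 0.03, edgeR adjusted p = 0.915). Library 12 set this value, since without it all 4 TPdh−/− TM libraries lay below the other 3 of WT TM and the log2 difference was −0.17 (edgeR adjusted p = 0.0645). In WT it fell by 0.98 in TM relative to TE (SE 0.193, edgeR adjusted p = 2.84e-05). Rpl22 itself, whose loss blocks alpha-beta T cell development in mice, was not called in any comparison, and averaged 409.8 ± 15.2 CPM in TPdh−/− TE and 433 ± 22.2 CPM in WT TE. The TPM ratio of Rpl22l1 to Rpl22 was 0.455 ± 0.0336 in TPdh−/− TE and 0.5975 ± 0.0190 in WT TE, with no overlap (exact permutation p = 0.0286, adjusted 0.0714). The call of Rpl22l1 in TE was lost without library 1, 2, 4, 6, 7 or 8, with adjusted p between 0.0511 and 0.0668, and with library totals (log2 −0.38, edgeR adjusted p = 0.0660), and Rpl22l1 shares exon positions with Gm33051.

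Rpl36al and Rpl36a, which encode near-identical proteins, kept a similar ratio in TM, at 0.291 ± 0.00905 in TPdh−/− TM and 0.288 ± 0.00623 in WT TM. In TE the ratio was 0.348 ± 0.0155 in TPdh−/− TE and 0.303 ± 0.0125 in WT TE, with no overlap (exact permutation p = 0.0286, adjusted 0.0714). Rpl36a was called lower in TPdh−/− TE (log2 −0.25, edgeR adjusted p = 0.0456) and Rpl36al was not (log2 −0.05, edgeR adjusted p = 0.719), and the call of Rpl36a was lost without library 1, 2, 4, 5, 6, 7 or 8, with library totals (log2 −0.17, edgeR adjusted p = 0.158) and with a correction for GC content and length (log2 −0.11, edgeR adjusted p = 0.114). Rpl7l1, which takes part in ribosome assembly, averaged 92.0 ± 13.1 CPM in TPdh−/− TE and 80.3 ± 2.87 CPM in WT TE and did not pass (log2 0.20, edgeR adjusted p = 0.0507), while Rpl7 was called lower (log2 −0.20, edgeR adjusted p = 0.0419), a call lost without library 1, 2, 4, 5, 6 or 7 and with library totals (log2 −0.12, edgeR adjusted p = 0.187).

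**Figure D4:**
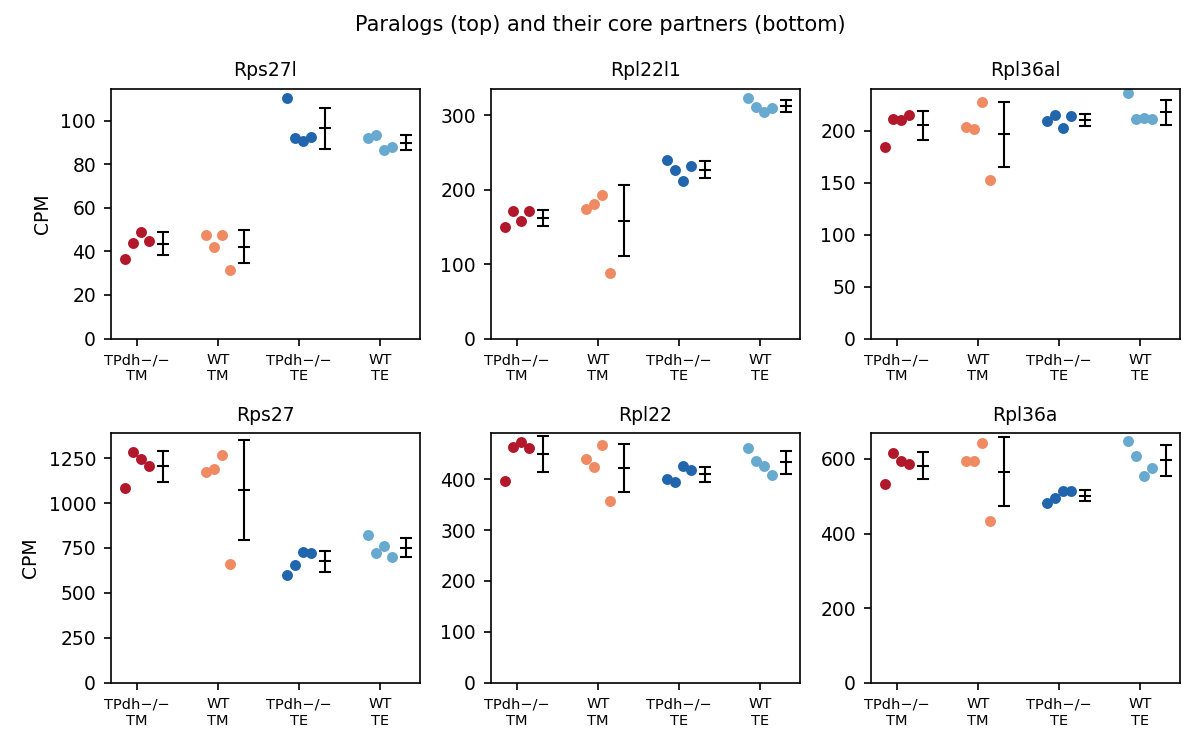
CPM (y axis, from 0) in each library of 3 paralogs (top row) and their core partners (bottom row), by group (x axis), with 1 point per library and the mean ± SD beside the points. Rps27l lies between 86.5 and 110.6 CPM in TE and at most at 49.1 CPM in TM, and the Rpl22l1 libraries of TPdh−/− TE (212 to 239.5 CPM) lie below those of WT TE (305 to 324 CPM).

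The differences of the members also ran with the base composition of their transcripts. The GC content of the 83 tested members lay between 39.8 and 60.8%, with a median of 51.6% against 50.2% over the tested genes. Across the members the log2 difference between genotypes had a Pearson r of −0.42 (Spearman rho −0.41) with GC content in TM and of −0.29 (rho −0.30) in TE, given as a description since all members share the same libraries. Over 15257 genes r was −0.09 in TM and 0.04 in TE. In TE the median was −0.17 among the 27 members with the lowest GC content (6 lower calls), −0.21 among the 28 in the middle (7 lower calls) and −0.22 among the 28 with the highest (11 lower calls). Between cultures in TPdh−/− cells the medians of these 3 classes were 0.15, 0.01 and −0.08, with 13, 7 and 1 higher calls, and in WT cells they were −0.02, −0.07 and −0.23.

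A correction for GC content and length in each library was chosen after the data were seen. Under it 22 members were called lower and 2 higher in TPdh−/− TE, with a median of −0.11. Of all 15257 genes 2583 were then called lower and 2735 higher. In TM the same correction left 0 lower calls and 3 higher, beside 1190 lower and 1842 higher of all genes. For TM against TE in TPdh−/− cells it gave 41 higher and 12 lower calls with a median of 0.15, beside 4931 higher and 5474 lower of all 15257 genes. The members' share of higher calls then lay above that of all genes and their share of lower calls below it. In WT cells it gave 18 higher and 14 lower calls with a median of 0.05, beside 5032 higher and 5551 lower of all genes. In WT the higher calls then outnumbered the lower ones, but both shares lay below those of all genes. The lower calls of Rps2, Rpl41 and Rps26 between cultures were kept under the correction, in both genotypes. Rpl8, called lower in TM than in TE, took the opposite sign, at 0.03 in WT (edgeR adjusted p = 0.517) and 0.16 in TPdh−/− cells (edgeR adjusted p = 0.00420), and without the correction its call in TPdh−/− cells was lost without library 6, 7, 8, 13, 14 or 16.

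**Figure D5:**
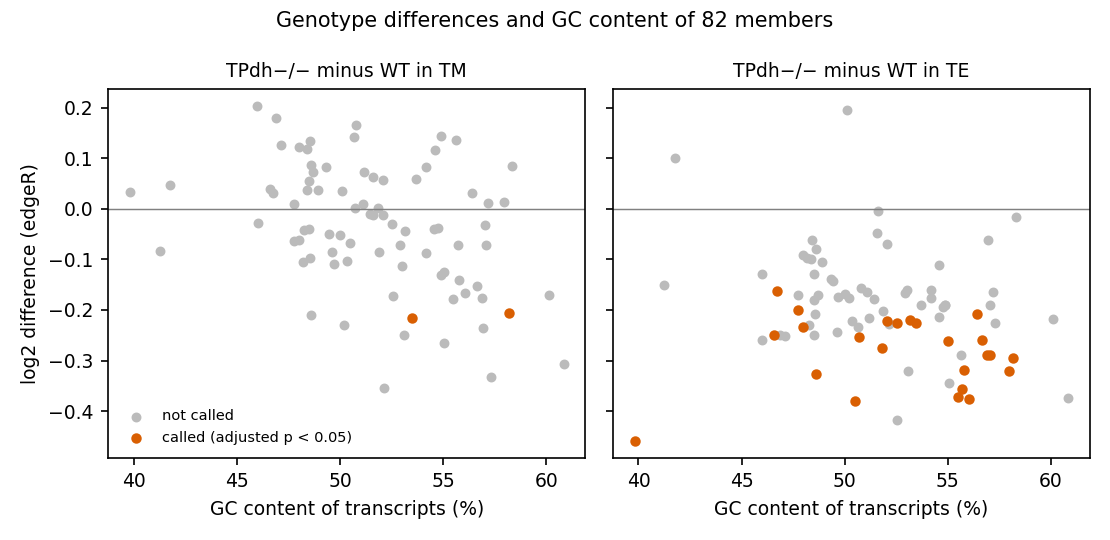
GC content of the transcripts in percent (x axis) against the log2 difference from edgeR (y axis) between TPdh−/− and WT, in TM (left) and TE (right), with 1 point per member, called members in orange and Rpl39l left out. The points slope downward in both panels (r −0.42 in TM and −0.29 in TE over 83 members), and in TE nearly all lie below 0 at every GC content.

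Other genes of translation were counted from lists of known members, beside the 14.3% of all genes called lower and 17.3% called higher in TE. Of 28 other genes whose messages begin with a pyrimidine run, 10 were called lower and 5 higher in TPdh−/− TE, with a median of −0.14, so their share of higher calls was near that of all genes. They were led by Snhg12, a small nucleolar RNA host that rose by 0.55 on the log2 scale, and by Eif3k and Eif3h, initiation factor subunits, which fell by 0.38 and 0.26 (edgeR adjusted p = 0.000125, 0.000187 and 0.000298). In TPdh−/− TM, where 7.27% of all genes were called lower and 11.0% higher, 5 of the 28 were called lower, among them Eif3l (log2 −0.20, edgeR adjusted p = 0.00387), Hnrnpa1 (log2 −0.15, edgeR adjusted p = 0.0220) and Nap1l1 (log2 −0.19, edgeR adjusted p = 0.0255). Of 21 genes that control the translation of these messages, 4 were called higher in TE, a share near that of all genes, and 1 lower. In TM the smallest edgeR adjusted p among the 21 was 0.0714 (Tia1, log2 0.16). Larp4 rose by 0.53 in TPdh−/− TE (edgeR adjusted p = 0.000557), Eif4ebp1, which restrains cap-dependent initiation, rose by 0.41 (edgeR adjusted p = 0.00404), and Rptor, the mTORC1 subunit, fell by 0.33 (edgeR adjusted p = 0.00223).

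Of 78 mitochondrial ribosomal proteins, 5 were called lower and 3 higher in TPdh−/− TE, with a median of −0.03, and 2 were called lower in TPdh−/− TM, with a median of −0.05. Of all tested genes, 14.3% were called lower and 17.3% higher in TE, and 7.27% lower and 11.0% higher in TM. Between cultures 51 were called lower and 9 higher in WT TM, with a median of −0.30, beside 34.3% of all genes in each direction. The difference from the cytosolic members was not tested. Mrps18b rose by 0.49 in TPdh−/− TE (edgeR adjusted p = 0.000504), while Mrpl27 and Mrpl9 fell by 0.38 and 0.27 (edgeR adjusted p = 0.00137 and 0.00290), and in TPdh−/− TM Mrpl28 fell by 0.28 and Mrpl54 by 0.23 (edgeR adjusted p = 0.0149 and 0.0390). Of 22 genes of the p53 pathway, which ribosomal stress can engage through Rpl5 and Rpl11, 13 were called higher in TPdh−/− TE, beside 17.3% of all genes. In TPdh−/− TM 9 of the 22 were called higher and 1 lower, beside 11.0% higher and 7.27% lower of all genes. Zmat3, Perp and Phlda3 led in TE, at log2 differences of 1.023, 1.67 and 1.15 (edgeR adjusted p = 1.95e-07, 7.94e-07 and 9.52e-07), and Cdkn1a, the inhibitor of cell cycle kinases, led in TM at 1.89 (edgeR adjusted p = 9.38e-07). Rps27l, itself a p53 target, was not called between genotypes in either culture. Between cultures, where Rps27l was lower in TM, 17 of the 22 were called lower and 4 higher in WT TM. Their median was −0.63, beside 34.3% of all genes called in each direction. In TPdh−/− TM 14 were called lower and 3 higher, with a median of −0.51, beside 34.7% lower and 33.0% higher of all genes. A link between Rps27l and this list was not tested.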

How the data were processed

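The members and lists were chosen with earlier results of these data known. Per the labels, the authors sequenced poly(A) TruSeq libraries that do not keep the strand, and their processing notes name the mm10 (GRCm38) build, STAR 2.7.6a, RSEM 1.3.3 and, without a version, DESeq2. The annotation release is not given in the sources used here. The deposited expected counts, which the authors obtained from RSEM and which need not be whole, were rounded for testing. The deposited TPM, which the authors scaled for effective length and library total, gave the levels. The deposited transcript and effective lengths gave the fragment length of a library. Names came from GENCODE M21, which matched 55141 of 55401 genes.

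Genes were filtered with filterByExpr (minimum count 10, minimum total 15), scaled with TMM and tested in edgeR 4.0.16 (R 4.3.3) by a quasi-likelihood fit to all 16 libraries with 1 mean per group. Benjamini-Hochberg adjustment ran over the 15277 tested genes of each contrast, and a gene was called below 0.05. CPM are counts scaled with TMM factors, and SE come from the spread of log2 CPM (prior count 2) over the 4 groups. Ratios were compared by exact 2-sided permutation tests in scipy 1.17.1. DESeq2 1.42.0, limma 3.58.1 (voom), library totals, no filter, the compared groups alone, counts of 298 named pseudogenes added to their parents, and leaving out libraries were tried. Those pseudogenes held 0.402 to 0.580% as many counts as the members. A correction for GC content and transcript length (loess, span 0.3) was added after the data were seen. The edgeR step was tested on simulated data.

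Members were named where they were among the 5 called with the smallest adjusted p per direction in the genotype comparisons and in TM against TE in WT, or the 3 in the interaction. Paralogs with their partners, the 3 highest and lowest levels, and Rps6, Rplp0, Rpl5, Rpl11, Rpl13a and Rpsa were always named, and from each other list up to 3 genes per genotype comparison. Of the 85 members, 39 share exon positions with another gene. Rps4l was not analysed here.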

Additional observations from a re-analysis of the deposited data

Results flagged for a closer look

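In 12 of 140 groups of 4 values examined for the named members and their sum, 1 library stood apart from the other 3 (Dixon's test, for which chance flags about 1 in 20 groups). In TPdh−/− TM library 13 was low for Rpl22 (396 CPM, the others 461.5 to 474), for Rpl36al (184 CPM, the others 210.5 to 215.5) and for Rpl4 (3222 CPM, the others 3563 to 3629). In WT TM library 12 was low for Rps27, at 659 CPM against 1174 to 1268 CPM. In TPdh−/− TE library 5 was low for Rps2 (1081 CPM, the others 1134 to 1138) and high for Rps27l (110.6 CPM, the others 90.6 to 92.4), library 7 was high for Rps16 (433 CPM, the others 399 to 402) and library 8 was high for Rpl4 (3291 CPM, the others 3097 to 3126). In WT TE library 1 was high for Rpl36al (236 CPM, the others 211 to 212) and for Rpl4 (3572 CPM, the others 3297 to 3332), and library 3 was low for Rpl7l1 (76.05 CPM, the others 81.4 to 82.3) and high for Rpl8 (799 CPM, the others 733 to 735).

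The genotype difference of 2 members was not the same in the 2 cultures by the interaction term, with TM minus TE at 0.26 for Rpl6 and 0.43 for Rpl17 on the log2 scale (edgeR adjusted p = 0.0471 and 0.0416). Both were lost without several single libraries, as given in the report.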

How the results depend on the processing

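The count of members called lower in TPdh−/− TE was 24 and moved to 13 with library totals and to 49 with only the groups compared in the fit, and the higher calls, 0 in the fit reported, were 1 with library totals and 2 with the correction for GC content and length. In TPdh−/− TM the 2 lower calls became 5 with DESeq2, 0 with only the groups compared, 7 without libraries 5 and 12 and 0 with the GC and length correction, which gave 3 higher calls. For TM against TE the GC and length correction gave 18 higher and 14 lower calls in WT, beside 5032 higher and 5551 lower of 15257 genes. In TPdh−/− it gave 41 higher and 12 lower, beside 4931 higher and 5474 lower of all genes. Without libraries 5 and 12 the higher calls in WT were 15. The 2 interaction calls became 8 with DESeq2, 0 with library totals and 9 with the GC and length correction. The cause was not tested in any of these cases. Read as a share of expected counts, the summed level was 9.185% in TPdh−/− TM, 9.24% in WT TM, 8.55% in TPdh−/− TE and 9.20% in WT TE.

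With single libraries left out, the counts ran from 0 to 5 lower calls in TPdh−/− TM, 17 to 24 lower and 0 to 1 higher in TPdh−/− TE, 5 to 13 higher and 25 to 41 lower for TM against TE in WT, 15 to 26 higher and 15 to 23 lower for TM against TE in TPdh−/−, and 0 to 18 higher in the interaction. Of 910 values of called named members under the alternatives, 793 kept direction and call, 113 lost the call and 4 changed sign. The 4 were all under the GC and length correction, Rpl8 at 0.034 for TM against TE in WT, and Rpl8 at 0.16, Rpl28 at 0.0723 and Rpl11 at 0.0006 for TM against TE in TPdh−/−. No paired analysis was possible because the groups share no replicate numbers.

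Depth did not limit the core members, while Rpl3l, Rpl10l and Rpl39l had too few counts for a difference to be detectable.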
